A study of Bos taurus with 12 samples.

Results

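The genes described here encode the eukaryotic translation initiation factors of cattle, with the kinases and binding proteins that carry the same family name. They were taken by symbol, as every gene of the count table whose symbol starts with EIF and a digit, with the Y-linked EIF1AY left out and read beside its X-linked partner. This gave 52 of 32637 genes, all of them protein coding and all matched to the RefSeq annotation of the ARS-UCD2.0 assembly, and 51 passed the filter on low counts. The remaining gene was EIF4E1B.

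Translation starts when the small ribosomal subunit, loaded with the initiator methionyl tRNA, is brought to the cap of an mRNA and moves along it to a start codon. eIF1, eIF1A, eIF2, eIF3 and eIF5 assemble on that subunit, eIF4 proteins recruit it to the cap and unwind the mRNA, and eIF5B joins the large subunit. eIF2 carries the tRNA as a GTP-bound complex that eIF2B must recharge after each round, and phosphorylation of eIF2 by stress kinases blocks that recharging. In the mammalian embryo this apparatus first works on messages stored by the oocyte and later on those of the embryonic genome.

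RNA-seq was performed on bovine expanded blastocysts produced in vitro and collected on the seventh or the eighth day, comparing 6 female with 5 male libraries. The groups differ by sex alone in the labels, which name no strain, age or agent, and the collection weeks and bulls that the study mentions are not given per library. Each embryo was cut, one piece was typed for sex by PCR, and the pieces kept for sequencing were pooled in pairs by sex. A replicate is thus a pool with inner cell mass and trophectoderm together and not one embryo. A 12th sample, of embryos sequenced with long reads, was not used here.

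Levels are given as CPM, counts over the library total after TMM scaling in edgeR. Counts totalled 6664112 to 16162985 per female library and 9942952 to 21392764 per male library, and the 52 genes took between 1.24% and 1.49% of them, which is 91144 counts or more in each library. XIST stood at 52.3 to 261 CPM in females and 0.745 to 3.97 CPM in males. The 10 trophectoderm markers summed to 7879 to 23154 CPM in females and 9195 to 36145 CPM in males, and the 6 inner cell mass markers to 559.6 to 980.5 and 792 to 1076 CPM. The 7 hypoblast markers summed to 228 to 621 and 208 to 467 CPM, with SOX17 and FOXA2 too low to test. The 7 cumulus markers summed to 7.19 to 32.7 and 5.38 to 29.5 CPM, and TNFAIP6, INHA, AMH and FOXL2 were too low to test. No marker of the 4 lists was called. At an unadjusted p under 0.05 in the edgeR quasi-likelihood test, PTGS2 and CYP19A1 were higher in females, as were 6.95% of all tested genes. Their log2 fold changes of male over female were -1.20 and -1.67, and CYP19A1 had at most 42 counts in a library. No marker was higher in males at that p. Male replicate 5 stood apart, with 14937 genes counted against 16985 to 18550 in the other libraries, and it held the highest trophectoderm sum. KRT8 alone gave 20143 CPM of that sum.

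The initiation factor genes that passed the test of male against female were both on the X chromosome and higher in females, and no autosomal one passed. A call of sex bias needed a change of more than 1.5-fold and a false discovery rate (FDR, Benjamini-Hochberg over all 12802 tested genes) under 0.1 in the quasi-likelihood test of edgeR. EIF1AX and EIF2S3 were called female-biased, 2 of the 51 genes (3.92%), where 1.5% of all tested genes were. None was called male-biased, against 0.414% of all tested genes, and DESeq2 also called 0 in that direction and the same 2 genes in the other. At an unadjusted p under 0.05 the test marked 7 genes as higher in males (13.7%, against 6.26% of all tested genes) and 3 as higher in females (5.88%, against 6.95%). The median log2 fold change of male over female was 0.15 over the 51 genes and 0.01 over all tested genes. It was above 0 for 36 of the 51 genes (70.6%), against 50.5% of all tested genes. Across the alternatives this number ran from 31, without male replicate 5, to 37 in settings where all 52 genes were tested.

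For many of the genes the libraries bound the difference closely. The 95% interval of the fold change lay inside 1.5-fold either way for 19 of the 51 genes (37.3%), and for 17.9% of all tested genes. These 19 were EIF1, EIF1B, EIF2S1, EIF2A, EIF2B3, 9 genes of eIF3, EIF4A3, EIF4E2, EIF4G1, EIF4G2 and EIF6. The median width of the interval was 0.74 on the log2 scale for initiation factor genes and 1.26 for all tested genes. Low values carry more counting error, so the width depends in part on the level of a gene.

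**Figure D1:**
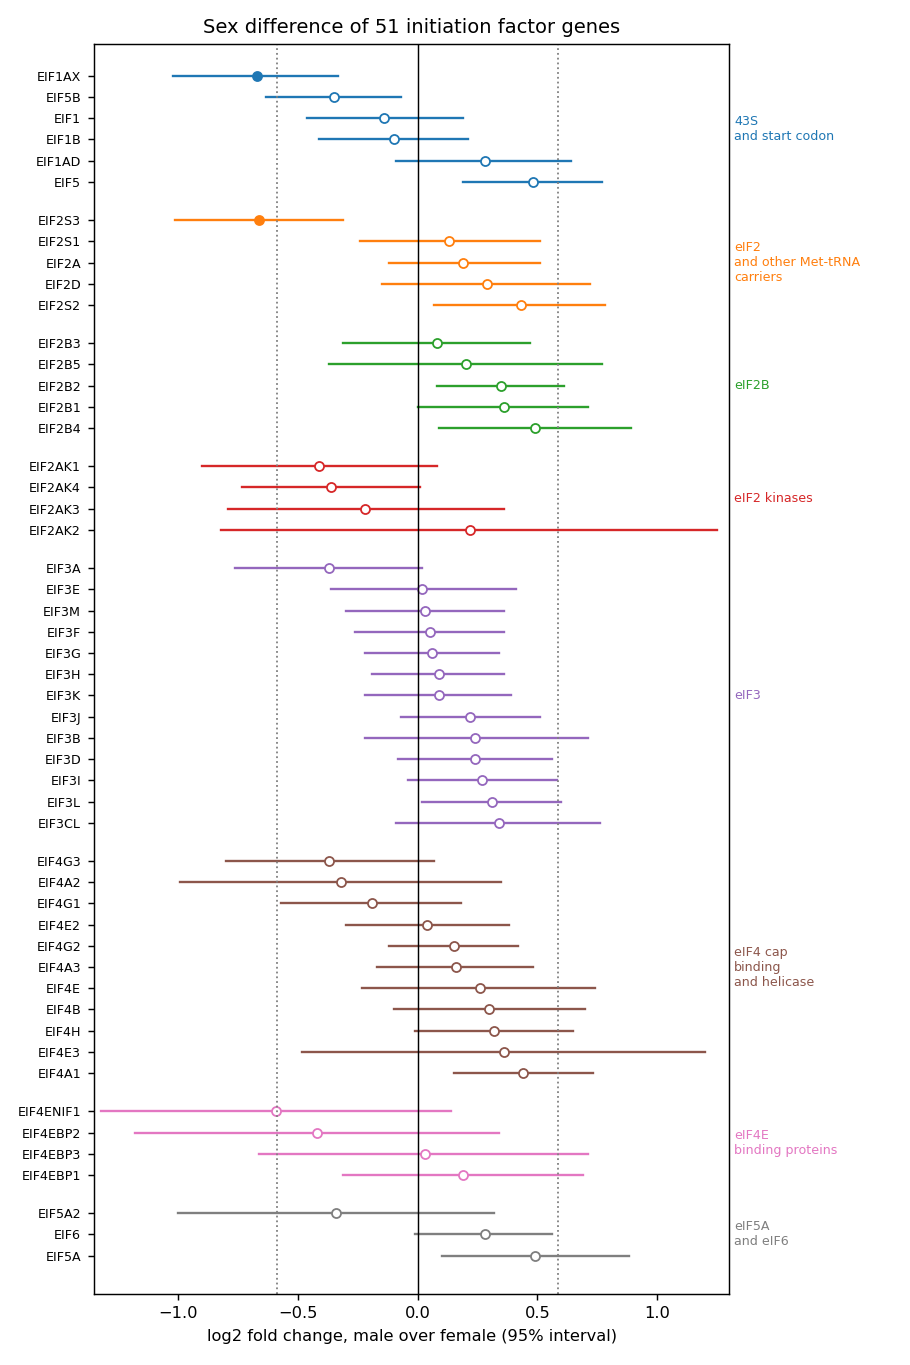
Log2 fold change of male over female for the 51 tested initiation factor genes, grouped by role along the vertical axis, with the 95% interval of each as a bar. EIF1AX at -0.67 and EIF2S3 at -0.66 are the genes farthest to the female side that passed the test, and the genes farthest to the male side, EIF5A and EIF2B4 at 0.49, did not pass it.

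EIF1AX encodes eIF1A, which holds the scanning complex open and helps it to read the start codon. The gene lies at 123062870 to 123072702 on the X chromosome. Its level ranged from 619 to 856 CPM in the 6 female libraries, with a median of 778 CPM. The 5 male libraries stood at 450.1, 434, 507, 600.1 and 366 CPM. Every female library was above every male library, a separation that 1.88% of all tested genes and 29.2% of tested X-linked genes showed. The log2 fold change of male over female was -0.67 (SE 0.16, 95% interval -1.02 to -0.33, edgeR quasi-likelihood FDR = 0.0723), from 749 ± 89.1 CPM (SD, n = 6) in females to 472 ± 87.7 CPM (SD, n = 5) in males. This is a 1.59-fold higher level in females.

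EIF2S3 encodes the gamma subunit of eIF2, which binds GTP and the initiator tRNA, and lies at 119205850 to 119220743 on the X chromosome. Female libraries ranged from 443 to 589 CPM with a median of 544 CPM. Male libraries stood at 272, 369.9, 390.5, 366 and 249.9 CPM, all below the lowest female. The log2 fold change was -0.66 (SE 0.16, 95% interval -1.01 to -0.31, edgeR quasi-likelihood FDR = 0.0786), with means of 523 ± 59.4 CPM (SD, n = 6) and 329.5 ± 63.9 CPM (SD, n = 5).

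Both calls sat close to the thresholds. In the fits that left out 1 library in turn, the calls of both genes were kept only without female replicate 3 and without male replicate 4, and lost in the other 9 of 11. Both calls were also lost with a replicate block by title number (edgeR quasi-likelihood FDR = 0.151 and 0.170), with a test of the 1.5-fold change itself and at an FDR under 0.05. The log2 fold change of EIF1AX then ran from -0.80 to -0.58 and that of EIF2S3 from -0.77 to -0.58, with the values nearest to 0 in the fit without male replicate 5, where the fold change fell just under 1.5. Within library numbers 1, 2 and 3, taken from the start of each library's name and used as the block of the test, the log2 ratio of the means was -0.84, -0.46 and -0.65 for EIF1AX and -0.79, -0.34 and -0.76 for EIF2S3. That the sexes did not overlap within any library number follows from their separation over all libraries and adds nothing to it. Number 2 holds 1 male library only.

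**Figure D2:**
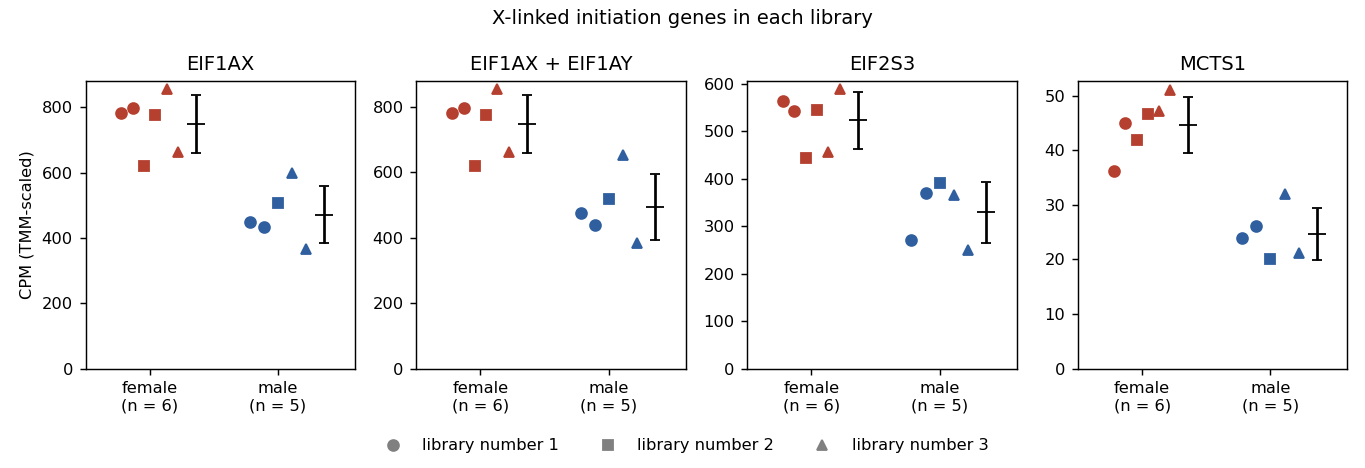
Level in CPM of EIF1AX, of EIF1AX and EIF1AY summed, of EIF2S3 and of MCTS1 (a helper gene described further on) in each library, by sex, with the mean and SD as bars and the library number as the marker shape. Males sit below females without overlap for EIF1AX, EIF2S3 and MCTS1, and with EIF1AY added the highest male, at 652 CPM, passes the lowest female, at 619 CPM.

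Neither gene was extreme among X-linked genes. The test called 132 of the 476 tested X-linked genes female-biased (27.7%), and their median log2 fold change was -0.85. A stronger female bias than that of EIF1AX was fitted for 304 X-linked genes, and a stronger one than that of EIF2S3 for 310. Among the 49 autosomal initiation factor genes, 0 were called in either direction, where 0.361% of autosomal genes were called female-biased and 0.345% male-biased. Of these 49, 1 was marked as higher in females at an unadjusted p under 0.05 (2.04%, against 4.62% of all autosomal genes) and 7 as higher in males (14.3%, against 6.47%), and DESeq2 called none of them.

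Males have a second copy of the eIF1A gene on the Y chromosome, EIF1AY, which the table lists apart. It had 319, 41, 169, 657 and 363 counts in the 5 male libraries and 1 count in all the female libraries together. A count of 0 in a female library allows up to 3 counts. The Y copy made up 5.54%, 0.989%, 2.10%, 8.0% and 4.58% of the counts on both copies in male replicates 1 to 5. The Wilson 95% interval was 0.730% to 1.34% for the lowest share and 7.43% to 8.61% for the highest, covering counting error only, so the male pools differed from each other by more than that error. How reads that match both copies were counted is not given in the sources used here, and the split between the copies is uncertain to that extent.

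The summed level of both copies does not depend on how counted reads were split between them, although reads left uncounted for matching both would lower it. It was 619 to 856 CPM in females, with a median of 778 CPM, and 477, 438, 518, 652 and 384 CPM in males. Male replicate 4, with the largest share from the Y copy, lay above female replicate 3, and the other males lay below all females. The means were 749 ± 89.1 CPM (SD, n = 6) and 494 ± 101 CPM (SD, n = 5), a male to female ratio of 0.660 (two-sided exact permutation test, 462 arrangements, p = 0.00866). For EIF1AX alone the same exact test gave p = 0.00433, which is the smallest p that this two-sided test can give with these libraries. Within the library numbers the log2 ratio of the summed means was -0.79, -0.43 and -0.55.

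Ratios within a library do not move with its scaling. The counts of EIF1AX over those of EIF1, which encodes the autosomal partner of eIF1A on the small subunit, lay between 0.731 and 1.16 in females and between 0.557 and 0.680 in males. EIF2S3 over the mean of EIF2S1 and EIF2S2, which encode the alpha and beta subunits of eIF2, lay between 0.492 and 0.765 in females and between 0.303 and 0.370 in males. Neither ratio overlapped between the sexes. Each ratio also moves with its denominator, where the log2 fold change was -0.14 for EIF1, 0.13 for EIF2S1 and 0.43 for EIF2S2. The ratios compare counts and not molecules, since gene lengths differ, and only their difference between the sexes can be read.

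The autosomal subunits of eIF2 lay on the other side. EIF2S2 ranged from 775 to 1153 CPM in females, with a median of 937 CPM, and stood at 1048, 1292, 1501, 1567 and 952 CPM in males, which overlap. Its log2 fold change was 0.43 (SE 0.16) and did not pass the test (edgeR quasi-likelihood FDR = 0.282). Without male replicate 5 it was 0.53 (FDR = 0.0914 in that test), where the fold still missed its threshold. EIF2S1, whose protein holds the serine that stress kinases phosphorylate, had a log2 fold change of 0.13 with a 95% interval of -0.24 to 0.51, and of -0.02 without male replicate 4. EIF2A and EIF2D, which can deliver tRNA to the ribosome without eIF2, had 0.19 and 0.29 on the same scale and were not called.

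The 5 subunits of eIF2B, the exchange factor that recharges eIF2 with GTP, all had fold changes above 0, and none was called. EIF2B2, the beta subunit, ranged from 82.5 to 110.3 CPM in females, with a median of 90.0 CPM, and stood at 115, 115, 114, 122 and 136 CPM in males. It was the only initiation factor gene with every male library above every female library, which 1.43% of all tested genes showed. Its log2 fold change was 0.35 (SE 0.12, 95% interval 0.08 to 0.61, edgeR quasi-likelihood FDR = 0.234), and the log2 ratio within the library numbers was 0.45, 0.34 and 0.26.

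EIF2B4, the delta subunit, ranged from 31.2 to 48.5 CPM in females and stood at 56.3, 56.6, 40.1, 61.7 and 94.1 CPM in males. Its log2 fold change was 0.49 (SE 0.18), and 0.34 without male replicate 5, which was the highest library. EIF2B1, the alpha subunit, had 66.4 to 116 CPM in females and 98.6, 134, 118, 151 and 107 CPM in males, with a log2 fold change of 0.36 and groups that overlap. EIF2B3 and EIF2B5, the gamma and epsilon subunits, had 0.08 and 0.20. Their direction rested on single libraries, since EIF2B3 was at -0.09 without male replicate 3 and EIF2B5 at -0.10 without male replicate 5.

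Summed over the 5 subunits, eIF2B transcripts stood at 307, 337, 338, 288, 356 and 360.1 CPM in females and at 374, 412, 405, 435 and 446 CPM in males. The groups did not overlap in this sum, with means of 331 ± 28.2 CPM (SD, n = 6) and 414 ± 28.1 CPM (SD, n = 5). The log2 ratio within the library numbers was 0.29, 0.37 and 0.30. Among the 8 role groups, the sums of the other 7 overlapped. Males lay above females without overlap in 1.43% of all tested genes, and how often sums of 5 genes do so was not tested. The inner cell mass markers, whose sum lay above the female median of 754 CPM in all 5 males, were not called, and the part of the makeup of the pools in these sums was not tested. In pools of whole pieces of embryo, fewer cells of a type and less RNA per cell cannot be told apart.

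**Figure D3:**
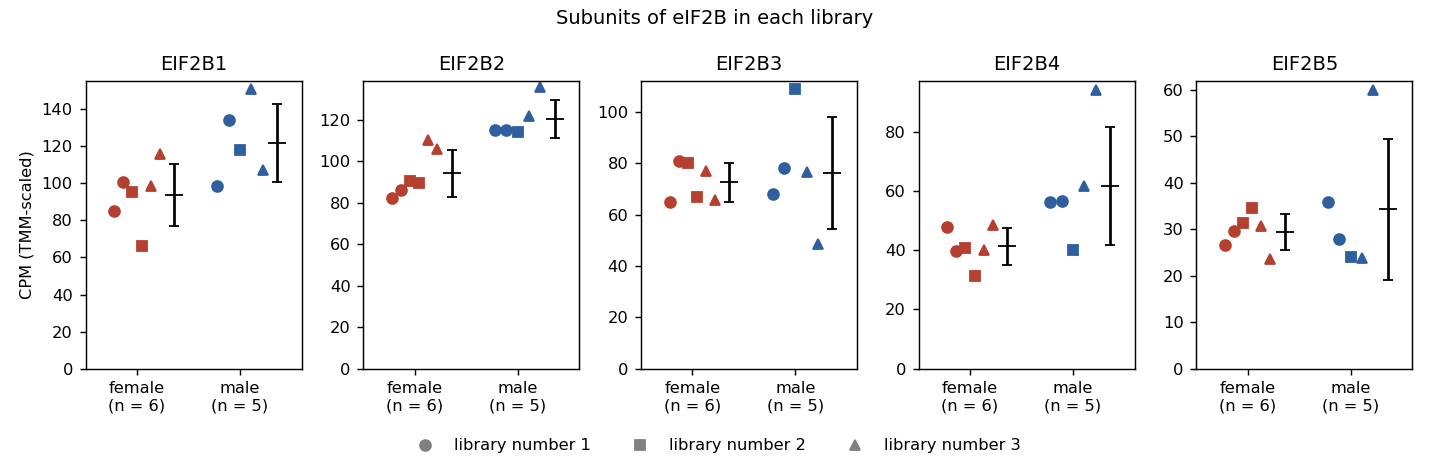
Level in CPM of the 5 eIF2B subunit genes in each library, by sex, with the mean and SD as bars and the library number as the marker shape. All 5 males lie above all 6 females for EIF2B2 alone, and male replicate 5, the higher male triangle for EIF2B4 at 94.1 CPM and for EIF2B5 at 59.8 CPM, lies apart from the other males there.

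None of the kinases that phosphorylate eIF2 was called. EIF2AK4 encodes GCN2, which senses uncharged tRNA, and had 25.7 to 38.9 CPM in females and 26.8, 19.9, 29.7, 18.0 and 22.9 CPM in males, with all males below the female median of 30.1 CPM. Its log2 fold change was -0.36 (SE 0.17, edgeR quasi-likelihood FDR = 0.387). EIF2AK1, the heme-regulated kinase, had -0.41 and EIF2AK3, the kinase PERK of the endoplasmic reticulum, had -0.22. EIF2AK2, the kinase PKR that binds double-stranded RNA, had 0.22 with all libraries at 2.11 to 10.2 CPM, and -0.17 without male replicate 5. The 4 kinases summed to 73.1 to 89.0 CPM in females and 52.2 to 74.0 CPM in males, and these ranges overlap.

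Of the other factors that act at the start codon, EIF5 and EIF5B had the smallest p, with fold changes in opposite directions. EIF5, the GTPase-activating protein of eIF2, ranged from 454 to 635 CPM in females, with a median of 555 CPM, and stood at 601, 761, 727, 899.9 and 867 CPM in males. Male replicate 1 fell inside the female range and the other 4 males lay above it. The log2 fold change was 0.48 (SE 0.13, 95% interval 0.19 to 0.77), a 1.39-fold difference that missed both the threshold on the fold and that on the FDR (edgeR quasi-likelihood FDR = 0.131). The FDR was 0.0716 and 0.0517 in DESeq2 with and without the block and 0.0976 in edgeR with no replicate block, where the fold still missed. Within the library numbers the log2 ratio was 0.35, 0.50 and 0.60. The annotated span of EIF5 overlaps another protein-coding gene and a snoRNA, and reads shared with them cannot be told apart here.

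EIF5B, the GTPase that joins the ribosomal subunits, ranged from 218 to 284 CPM in females with a median of 229.8 CPM. It stood at 184, 167, 193, 197 and 194 CPM in males, all below the lowest female. The log2 fold change was -0.35 (SE 0.13, 95% interval -0.63 to -0.07), with edgeR quasi-likelihood FDR = 0.260. It was the only autosomal initiation factor gene with all females above all males, and 0.723% of autosomal genes showed that separation. EIF1 and EIF1B, which guard the choice of start codon, had log2 fold changes of -0.14 and -0.10.

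eIF3 is the large scaffold that links the small subunit to the mRNA and the cap-binding proteins. Its 13 genes had a median log2 fold change of 0.09, none was called, and 9 had an interval inside 1.5-fold. EIF3H, which had one of the smallest spreads between libraries, ranged from 253 to 294 CPM in females and stood at 271, 246, 311, 332 and 254 CPM in males, with a log2 fold change of 0.09 and a 95% interval of -0.19 to 0.36. EIF3A, the largest core subunit, was the only gene of the group below 0, at -0.37 (SE 0.18, edgeR quasi-likelihood FDR = 0.407). It ranged from 227 to 333 CPM in females and stood at 301, 192, 265, 172 and 165 CPM in males, where replicates 1 and 3 lay inside the female range. The eIF3c subunit is listed as EIF3CL, and its highest library was male replicate 5, at 339 CPM against 133 to 212 CPM elsewhere.

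Among the cap-binding and helicase factors, EIF4A1 was the one with the smallest p. It encodes the main RNA helicase of eIF4F and ranged from 472 to 668 CPM in females, with a median of 549.5 CPM. Males stood at 626, 701, 908, 748 and 802 CPM, and only replicate 1 lay inside the female range. The log2 fold change was 0.44 (SE 0.13, 95% interval 0.15 to 0.73, edgeR quasi-likelihood FDR = 0.160), and 0.19, 0.58 and 0.60 within the library numbers. In DESeq2 the FDR was 0.0995 with the library number and 0.110 without it, and the fold missed its threshold in both. Its span overlaps small nucleolar RNA genes. The other helicase genes went separate ways, with EIF4A2 at -0.32 and EIF4A3, a subunit of the exon junction complex, at 0.16. EIF4E, the cap-binding protein, had 0.26 with a 95% interval of -0.23 to 0.74, and the scaffold genes EIF4G1, EIF4G2 and EIF4G3 had -0.19, 0.15 and -0.37.

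EIF4E1B, a cap-binding homolog known from oocytes, failed the filter. It had 0, 0, 0, 59 and 79 counts in male replicates 1 to 5 and 0, 0, 0, 4, 1 and 1 counts in the female libraries. The 2 males with reads stood at 4.69 and 3.83 CPM, and both carry library number 3, as do female replicates 5 and 6 with 1 count each. The binding proteins that keep EIF4E from the scaffold were not called. EIF4EBP1, EIF4EBP2 and EIF4EBP3 had log2 fold changes of 0.19, -0.42 and 0.03, and EIF4ENIF1, which carries EIF4E to the nucleus, had -0.59 (SE 0.34) with a 95% interval of -1.32 to 0.14.

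EIF5A encodes a factor that eases peptide bond formation at difficult sequences and is known mainly from elongation. It ranged from 447 to 898 CPM in females, with a median of 639.9 CPM, and stood at 856, 644, 907, 1018 and 1334 CPM in males. Male replicates 1 and 2 lay inside the female range. Its log2 fold change was 0.49 (SE 0.18, edgeR quasi-likelihood FDR = 0.267), and 0.37 without male replicate 3. The gene overlaps GPS2. Its homolog EIF5A2 had -0.34, and EIF6, which keeps the ribosomal subunits apart, had 0.28 with an interval inside 1.5-fold.

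Male replicate 5 carried much of the spread among males. In that library 24 of the 51 genes (47.1%) lay more than 1.5-fold from the median of the other 10 libraries, 11 above and 13 below, where 56.1% of all tested genes did. In the other libraries the share was 3.92% to 21.6% of these genes and 17.5% to 28.3% of all tested genes. EIF4A2 stood at 48.8 CPM there against 117 to 267 CPM elsewhere, EIF3E at 268 against 418 to 632 CPM, and EIF4E at 504 against 750.3 to 1445 CPM. In the other direction, EIF4E3, a cap-binding homolog, stood at 30.2 CPM against 5.5 to 17.0 CPM. Without this library the log2 fold change of EIF4E3 went from 0.36 to -0.10. The trophectoderm markers of this library summed to 36145 CPM, of which KRT8 alone gave 20143 CPM. CDX2, KRT8, KRT18 and DAB2 were highest there. GATA2, GATA3, TFAP2A, TFAP2C, PTGS2 and LGALS3 lay inside the range of the other libraries. The part of the markers in the values of the initiation factor genes was not tested.

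The spread between libraries of one sex differed widely among the genes. The coefficient of variation, averaged over the sexes, had a median of 17.6% over the 51 genes and 32.4% over all tested genes. It was smallest for EIF5B at 8.23%, EIF3H at 9.34% and EIF2B2 at 9.91%. EIF2AK2 at 50.8%, EIF4E3 at 46.1% and EIF4A2 at 36.6% had the largest values. The first pair are low in counts in some libraries, with 29 and 40 counts at the least, and EIF4A2 had 1007 or more.

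**Figure D4:**
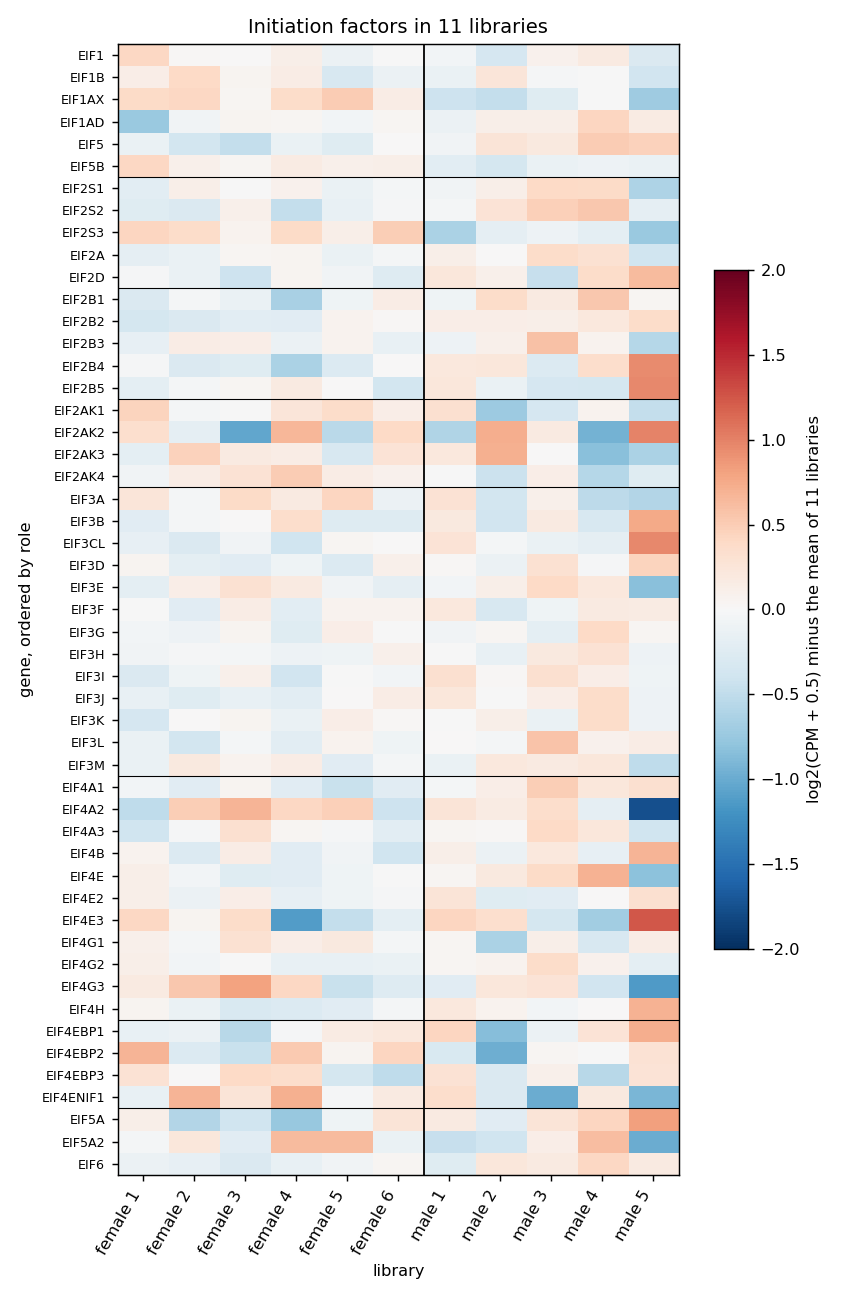
Deviation of log2(CPM + 0.5) from the mean of the 11 libraries for the initiation factor genes that passed the filter, in rows ordered by role, with the 6 female libraries on the left of the line and the 5 male libraries on the right. EIF1AX and EIF2S3 change colour at the line, and the column of male replicate 5 holds the strongest colours, with EIF4A2 at 48.8 CPM against 117 CPM or more elsewhere.

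Other genes of the translation pathway were read from 4 lists with 49 genes, of which 48 were tested. MCTS1 alone was called, as female-biased, where 1.5% of all tested genes and 27.7% of tested X-linked genes were. It encodes a partner of DENR in recycling and reinitiation and lies on the X chromosome, at 5151418 to 5159309. It had 36.2 to 51.1 CPM in females and 24.0, 26.2, 20.0, 31.9 and 21.1 CPM in males, without overlap, and a log2 fold change of -0.88 (SE 0.18, edgeR quasi-likelihood FDR = 0.0367). Its call was lost in the fits without female replicate 2 and without male replicate 3. DDX3X, an X-linked helicase that helps initiation on structured messages, also had all females above all males, with a log2 fold change of -0.68 and FDR = 0.131 in that test. Of all tested X-linked genes, 29.2% showed that separation. The 16 helper genes had a median log2 fold change of 0.10.

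None of the 11 genes of mTORC1 and MNK control, which act on the eIF4E binding proteins and on eIF4E, was called, and their median log2 fold change was 0.04. The 10 genes of the integrated stress response, which runs through the eIF2 kinases, had a median of 0.38 with 0 called. Of these 10, 2 were higher in males at an unadjusted p under 0.05, where 6.26% of all tested genes were. The 11 tested genes of elongation and termination all had values above 0, against 50.5% of all tested genes, with a median of 0.29, 0 called and 4 higher in males at that p. EEF1G, a subunit of the factor that recharges eEF1A, had the smallest p of the male direction at a log2 fold change of 0.58 (SE 0.16, edgeR quasi-likelihood FDR = 0.122). It was called without male replicate 4. In male replicate 5 EEF1G stood at 964 CPM against 372 to 734 CPM elsewhere, and without that library its log2 fold change was 0.44. EEF1A1, EEF1D, EEF2, EEFSEC, ETF1, DHPS and DOHH were also highest in male replicate 5. EEF1B2 and EEF1E1 were lowest there, and GSPT1 lay inside the range of the other libraries. EEF2K failed the filter. Over the 48 genes DESeq2 called 2 as male-biased, EEF1D and EEF1G, and 2 as female-biased, DDX3X and MCTS1. In both directions together it called 652 of 15994 tested genes with the library number and 739 of 15843 without it.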

How the data were processed

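The authors deposited counts of reads per gene from featureCounts, whole and not normalized. The reads came from full-length cDNA libraries (SMART-Seq HT PLUS) and were trimmed (fastp 0.20.0) and aligned to the ARS-UCD2.0 assembly (STAR 2.7.10b). The settings for strand and for reads with several matches are not given in the sources used here, and the kit does not mark strand. Of the 52 genes, 19 overlap another annotated gene, 7 of them a protein-coding one.

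Counts were analysed with edgeR 4.0.16 in R 4.3.3. Genes were filtered with filterByExpr by sex, scaled with TMM and tested by quasi-likelihood, male against female, with the library number as a block. The study used the collection week, which the labels do not give, and whether the number is the week is not known. Standard errors were the log2 fold change over the square root of F. Single values were compared by exact permutation tests in scipy 1.17.1. Alternatives used DESeq2 1.42.0, other scaling, filters, blocks and thresholds, and fits without each library. The fit and its intervals were tested on simulated data.

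The members and lists were chosen with earlier results of these data known. Genes named singly were those called, those on the X chromosome, the 5 with the smallest p in each direction, the 3 with the smallest and the 3 with the largest spread, EIF4E1B and the eIF2 and EIF4E regulators. The remaining eIF2B genes and others named by their role or for male replicate 5 were added once their values had been seen.

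The inner cell mass markers were POU5F1, NANOG, SOX2, LIN28A, KLF17, SPIC and TDGF1, the last not matched by symbol. The trophectoderm markers were the keratins KRT8 and KRT18, the factors CDX2, GATA2, GATA3, TFAP2A and TFAP2C, and DAB2, LGALS3 and PTGS2. Hypoblast markers were SOX17, FOXA2, HNF4A, GATA4, GATA6, COL4A1 and PDGFRA. Cumulus markers were FOXL2, AMH, FSHR, CYP19A1, HAS2, INHA and TNFAIP6.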

Additional observations from a re-analysis of the deposited data

Results flagged for a closer look

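Over 110 groups of libraries (the 52 genes, MCTS1, EEF1G and the sum of EIF1AX and EIF1AY, in each sex), 5 held a library far from the others by Dixon's ratio of the gap to the range, and chance marks about 1 in 20 groups. EIF1AD, a gene named after eIF1A, was lowest in female replicate 1 at 24.7 CPM, with the next female at 39.7 CPM. EIF5B was highest in the same library at 284 CPM, with the next at 237 CPM, and all other females still lay above all males. EIF3L, a subunit of eIF3, was highest in male replicate 3 at 548 CPM, with the next male at 409 CPM. EIF4H, which stimulates the eIF4A helicase, was highest in male replicate 5 at 305 CPM, with the next at 217 CPM. EIF4E1B was highest among females in replicate 4 at 0.550 CPM, which is 4 counts, with the next at 0.10 CPM.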

How the results depend on the processing

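Over 21 alternatives to the test, 0 initiation factor genes were called male-biased in each. EIF1AX and EIF2S3 stayed female-biased with no replicate block, with both other filters, with autosomal TMM or RLE factors, and in either form of DESeq2. The number of female-biased initiation factor genes was 0 at an FDR under 0.05, where the log2 fold changes of EIF1AX and EIF2S3 stay -0.67 and -0.66, 0 with glmTreat at 1.5-fold, a test of the fold change itself, and 0 with a replicate block by title number, where they were -0.71 and -0.65 (FDR = 0.151 and 0.170 in edgeR's quasi-likelihood test). Without each library in turn it was 0 to 2, with log2 fold changes of -0.80 to -0.58 for EIF1AX and -0.77 to -0.58 for EIF2S3 and adjusted p of 0.0364 to 0.192 and 0.0710 to 0.206. The summed level of EIF1AX and EIF1AY, lower in males by 255 CPM on average, kept its direction and its side of the threshold in all 13 alternatives.

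Pathway genes called female-biased and male-biased were 2 and 2 with DESeq2 in both forms and without the replicate block, 2 and 4 with all genes of at least 1 count, and 0 and 0 with glmTreat and with the title block. Without each library they were 0 to 1 in each direction. Reversed values were those of EIF4EBP3, at -0.07 in DESeq2 without library number and with no replicate block, -0.19 with the title block and -0.19 to 0.13 without each library. Without each library, EIF2AK2 ran from -0.17 to 0.46, EIF4E3 from -0.10 to 0.57 and EIF2B5 from -0.10 to 0.40, each lowest without male replicate 5. EIF2S1 ran from -0.02 (without male replicate 4) to 0.27 and EIF2B3 from -0.09 (without male replicate 3) to 0.20. The cause was not tested.

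All tested genes called numbered 245, and 62 with glmTreat, 125 at an FDR under 0.05, 132 with the title block, 326 with no replicate block, 652 and 739 with DESeq2, 743 with all genes of at least 1 count and 95 to 364 without each library. The p-values measure the spread between these pools, and counting error is larger where counts are low, as in EIF4E1B, EIF4EBP2, EIF2AK2, EIF4EBP3 and EIF4E3, with 40 counts or fewer in at least 1 library. Female and male libraries of the same title number deviated together weakly, with correlations of -0.111 to 0.351 (mean 0.0879, 2 of 5 pairs over 0.1, 2 of 5 males closest to their own number). Those of the same library number gave -0.111 to 0.351 (mean 0.0735, 4 of 10 pairs over 0.1) and other pairs had a mean of -0.0353. The library number is the block as a stand-in for the week, not because of this check.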
